A study of Mus musculus with 12 samples.

Results

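The genes described here encode the cap-binding complex eIF4F, its helper proteins and its repressors: Eif4e, Eif4ebp1, Eif4ebp2, Eif4g1, Eif4g2, Eif4g3, Eif4a1, Eif4a2, Eif4b and Eif4h. They were chosen by name, with earlier results of these data known, and all 10 were among the 7318 genes of the count table. With the dimerizer AP20187, Eif4ebp1 RNA rose by 1.28 ± 0.23 and Eif4g3 RNA by 0.58 ± 0.16 on the log2 scale (SE, n = 3 per group). The other 8 genes did not pass the test in RNA, and 12.4% of all genes tested rose. The Eif4ebp1 call held without any single RNA library, whereas that of Eif4g3 was lost in 4 of 6 such fits. In ribosome footprints no member passed the edgeR test without pairing of libraries. The footprints of Eif4g1 and Eif4g3 were higher in every AP20187 library than in any vehicle library, as held for 11.8% of all genes tested. Eif4g1 and Eif4g3 were both called by DESeq2 and by edgeR with the replicate number as a block, a pairing read from these same libraries. Under 4 of the 6 alternative settings, limma voom among them, neither was called. Over all genes, DESeq2 and the block called 528 and 715, against 179 by edgeR without pairing.

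The samples were mammary gland cells of female FVB/N mice, 4 weeks old, that carried both MMTV-Wnt1 and MMTV-iFgfr1. The MMTV promoter drives both transgenes mainly in mammary epithelium, and iFgfr1 is an FGFR1 kinase that AP20187 brings together in place of a ligand. Mice received vehicle or AP20187 by intraperitoneal injection 6 h before the glands were taken, and both groups carried both transgenes. Glands were digested for 2 h in collagenase with cycloheximide, which holds ribosomes on the message. Short spins enriched epithelial organoids, and each cell pellet gave a poly(A) RNA library and a library of ribosome-protected fragments, called footprints here. There were 4 groups of 3 libraries: RNA with vehicle, RNA with AP20187, footprints with vehicle and footprints with AP20187. The labels used here name no AP20187 group without iFgfr1, so the compound and the receptor it activates cannot be told apart. They do not say whether libraries came from separate animals or pools, so p-values measure the spread between these libraries, which may be partly technical.

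Cap-dependent translation starts when eIF4E binds the 5′ cap of an mRNA and eIF4G, a large scaffold, joins it to the RNA helicase eIF4A and to the small ribosomal subunit. The 4E-BPs occupy the surface of eIF4E that eIF4G uses, and the kinase mTORC1 phosphorylates them, which frees eIF4E. eIF4B and eIF4H stimulate eIF4A, and growth factor receptors such as FGFR1 act on this step through the PI3K and MAPK pathways.

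The sequences of 2 members are shown first, because these genes had very few footprints relative to their RNA. Processed pseudogenes are copies of an mRNA pasted back into the genome, and a read that lies within an identical copy cannot be placed on the source gene by its sequence. A stretch of the Eif4a1 coding sequence, from coding base 73 on the reverse strand of mm10 (chr11:69670688-69670747), is shown with the matching stretch of the pseudogene Eif4a-ps4 on the forward strand (chr1:60704004-60704063). The same stretch of the paralogue Eif4a2 on the forward strand (chr16:23108719-23108778) had 13 differing bases, printed in capitals. A stretch of Eif4e from coding base 19 on the forward strand (chr3:138546321-138546380) is shown with the pseudogene Gm7327 on the forward strand (chrX:61785399-61785458). All 5 stretches are 60 bases long, 5′ to 3′, from GENCODE M21 transcripts on GRCm38, the assembly of mm10.
Eif4a1: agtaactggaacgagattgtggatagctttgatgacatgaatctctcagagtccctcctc
Eif4a-ps4: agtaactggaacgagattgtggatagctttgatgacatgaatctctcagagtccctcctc
Eif4a2: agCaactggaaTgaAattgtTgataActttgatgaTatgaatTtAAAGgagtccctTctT
Eif4e: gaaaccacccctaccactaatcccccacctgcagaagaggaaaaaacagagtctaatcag
Gm7327: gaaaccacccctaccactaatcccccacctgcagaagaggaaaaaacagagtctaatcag

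The Eif4a1 and Eif4a-ps4 stretches had 0 differing bases, as had Eif4e and Gm7327. Over the whole coding sequence, 99.2% of the 28-base words of Eif4a1 also occurred in an annotated transcript of another, non-overlapping gene, and Eif4a-ps4 alone held 97.4% of them. For Eif4e the share was 80.5%, of which Gm7327 alone covered 74.6% of all words. Eif4a2 shared 42.3%, Eif4ebp1 19.0% and Eif4b 17.2%, whereas Eif4g1 shared 1.65%, Eif4h 0.694% and Eif4g2 0.371%. Eif4ebp2 and Eif4g3 shared 0% of their words. A length of 28 bases was taken as that of a typical footprint, and with words of 50 bases the shares were still 96.1% for Eif4a1 and 58.5% for Eif4e. These are lower bounds, since copies outside annotated transcripts were not searched.

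The libraries differed widely in depth. RNA libraries held 94513818 to 251874393 counts and footprint libraries 1772969 to 11018709, the deepest being AP20187 replicate 1. A count of 3 corresponded to at most 0.0317 CPM (counts per 1000000 counts of the library) in RNA and to between 0.272 and 1.69 CPM in footprints. These floors cover counting error only. Both groups carried both transgenes, so their levels do not check the treatment labels. Fgfr1 RNA rose by 1.32 on the log2 scale (edgeR, adjusted p = 0.0106) and Fgfr1 footprints by 1.96 (edgeR, adjusted p = 0.0237). Wnt1 RNA rose by 2.93 (edgeR, adjusted p = 0.00791), and Wnt1 footprints were at 1.78 (edgeR, adjusted p = 0.0659). The endogenous genes and the transgenes were not told apart, and the part of transgene level in the results below was not tested. CPM values below are scaled by TMM and relative to the other genes of the table.

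**Figure D1:**
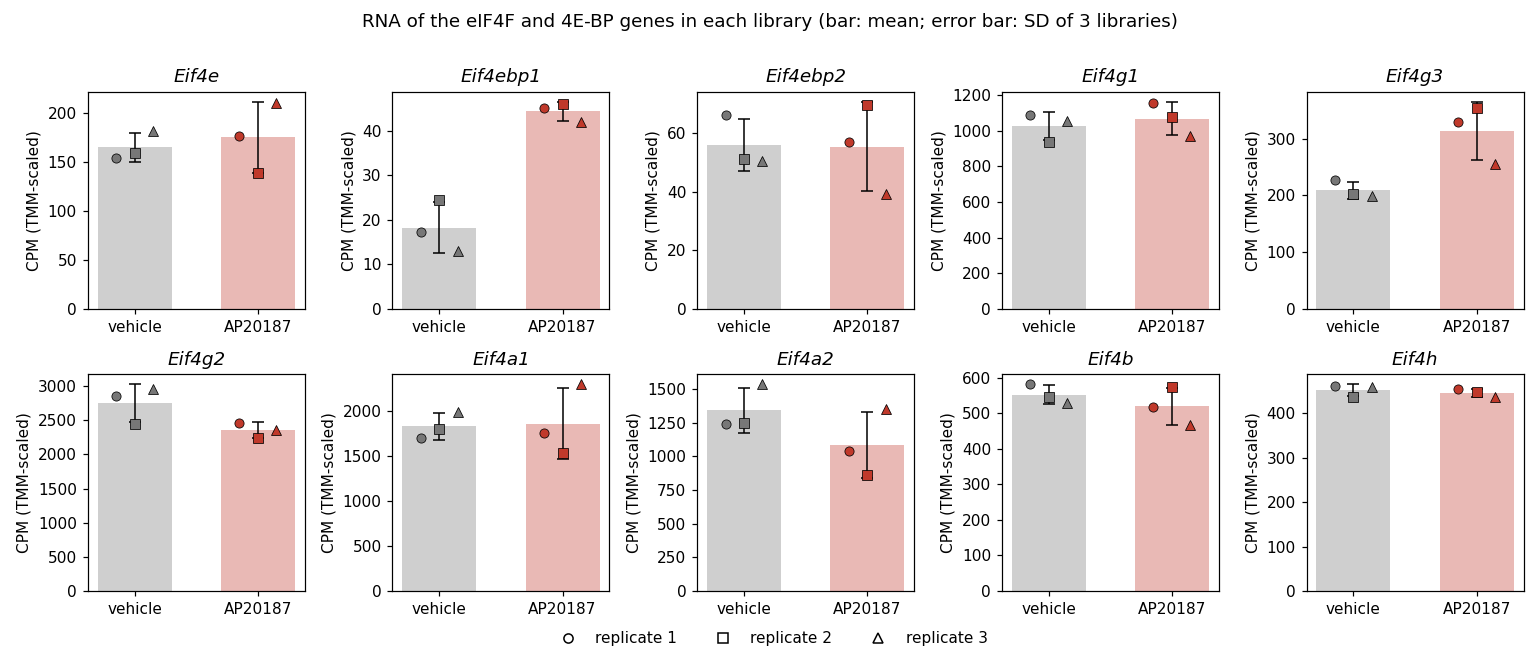
RNA level of each of the 10 genes in each library, in TMM-scaled CPM on a linear axis from 0, with the mean and SD of 3 libraries per group. Eif4ebp1 and Eif4g3 are the genes whose AP20187 libraries all lie above all vehicle libraries.

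In RNA with vehicle, per kb of merged exons, Eif4a1 stood first at 1029 ± 84.3 CPM per kb (SD, n = 3). Eif4a2 followed at 420 ± 52.2 CPM per kb and the scaffold homologue Eif4g2 at 344 ± 34.2 CPM per kb. Eif4g1 at 170 ± 13.0 and Eif4h at 166 ± 5.03 CPM per kb overlapped in range, so their order was not resolved. Eif4b stood at 134 ± 6.56 CPM per kb, well above the cap-binding protein gene Eif4e at 32.1 ± 2.84 CPM per kb. Eif4g3 stood at 20.7 ± 1.51 CPM per kb. The repressors were lowest and overlapped, with Eif4ebp2 at 9.68 ± 1.55 and Eif4ebp1 at 9.13 ± 2.88 CPM per kb. With AP20187, Eif4ebp1 at 22.2 ± 1.06 CPM per kb lay above Eif4ebp2 at 9.59 ± 2.64 CPM per kb without overlap, while Eif4e at 34.1 ± 7.02 and Eif4g3 at 31.0 ± 5.07 CPM per kb overlapped. Lengths of coding sequence in place of exons kept Eif4a1 first, at 1495 CPM per kb with vehicle, but put Eif4g1 in 7th and Eif4g3 in 10th place.

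The cap-binding protein itself showed no called change in RNA. Eif4e (chr3:138526179-138559696, forward strand) was at 154, 158 and 181 CPM in the vehicle RNA libraries and at 176, 138 and 210 CPM with AP20187. The groups overlapped throughout, and the log2 change was 0.09 ± 0.17 (SE; edgeR, adjusted p = 0.724). Its footprints were few, with 14, 16 and 17 counts in the vehicle libraries and 31, 8 and 17 counts with AP20187. In CPM these were 7.63, 8.70 and 4.43 against 2.92, 2.46 and 4.53. The groups overlapped in 1 library each, and the log2 change of -1.05 ± 0.73 did not pass the test (edgeR, adjusted p = 0.536).

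Among the repressors, Eif4ebp1 rose and Eif4ebp2 did not pass the test. Eif4ebp1 (chr8:27260329-27276674, forward strand) encodes 4E-BP1, and its RNA was at 17.3, 24.4 and 13.0 CPM with vehicle and 45.0, 46.0 and 42.0 CPM with AP20187. Every AP20187 library lay far above every vehicle library, and the rise of 1.28 ± 0.23 on the log2 scale was called (SE; edgeR, adjusted p = 0.00949). It was called under each of the 6 other settings and without any single RNA library, where the change ranged from 1.09 to 1.57 on the log2 scale. Its footprints were at 30.5, 33.7 and 20.1 CPM with vehicle and 37.9, 36.0 and 26.1 CPM with AP20187. These ranges overlapped, and the change of 0.25 ± 0.35 on the log2 scale was not called (edgeR, adjusted p = 0.808).

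Eif4ebp2 (chr10:61428491-61452661, reverse strand), which encodes the related repressor 4E-BP2, was at 66.3, 51.1 and 50.6 CPM in vehicle RNA and at 57.2, 69.8 and 39.4 CPM with AP20187. Its footprints were at 120, 111 and 58.1 CPM against 75.1, 97.3 and 53.0 CPM. Both sets overlapped. The log2 changes were -0.01 ± 0.22 in RNA (edgeR, adjusted p = 0.968) and -0.36 ± 0.34 in footprints (edgeR, adjusted p = 0.668).

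Of the scaffold genes, Eif4g3 rose in RNA. Eif4g3 (chr4:137993022-138208508, forward strand) encodes eIF4GII, a close homologue of eIF4GI, and its RNA was at 227, 202 and 199 CPM with vehicle and 330, 355 and 256 CPM with AP20187. All AP20187 libraries were higher than all vehicle libraries, and the rise of 0.58 ± 0.16 on the log2 scale was called (edgeR, adjusted p = 0.0289). The call was lost without vehicle replicate 1 (adjusted p = 0.0677), vehicle replicate 2 (adjusted p = 0.0533), vehicle replicate 3 (adjusted p = 0.114) or AP20187 replicate 1 (adjusted p = 0.0837), all by edgeR. Its footprints were at 97.5, 145 and 109 CPM with vehicle and 191, 218 and 233 CPM with AP20187, again without overlap. The log2 change was 0.86 ± 0.25 (edgeR, unadjusted p = 0.00621, adjusted p = 0.107).

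Eif4g1 (chr16:20668313-20692884, forward strand) encodes the main scaffold eIF4GI. Its RNA was at 1087, 938 and 1056 CPM with vehicle and 1158, 1074 and 970 CPM with AP20187, with a log2 change of 0.06 ± 0.15 (edgeR, adjusted p = 0.807). The RNA groups overlapped. Its footprints were at 311, 546 and 453 CPM with vehicle and 742, 789 and 873 CPM with AP20187, with no overlap and a log2 change of 0.86 ± 0.28 (edgeR, unadjusted p = 0.0102, adjusted p = 0.141). With the replicate number as a block, a pairing read from these same footprint libraries and not stated by the labels, both scaffolds were called. Eif4g1 rose by 0.90 ± 0.22 (edgeR, adjusted p = 0.0163) and Eif4g3 by 0.87 ± 0.20 (edgeR, adjusted p = 0.0139). DESeq2 also called both, with adjusted p = 0.0302 for Eif4g1 and 0.0310 for Eif4g3.

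Eif4g2 (chr7:111067750-111083030, reverse strand) encodes DAP5, a scaffold homologue without the eIF4E-binding region. It was at 2855, 2445 and 2963 CPM in vehicle RNA and at 2465, 2232 and 2353 CPM with AP20187, and the ranges overlapped by a small margin. The log2 change was -0.23 ± 0.16 in RNA (edgeR, adjusted p = 0.314). Its footprints were at 1189, 1323 and 1162 CPM against 1215, 1093 and 1205 CPM, with a log2 change of -0.08 ± 0.24 (edgeR, adjusted p = 0.925).

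Of the helicase genes, Eif4a1 (chr11:69666936-69672423, reverse strand) had the highest RNA per kb and next to no footprints. Its RNA was at 1696, 1792 and 1989 CPM with vehicle and 1745, 1524 and 2292 CPM with AP20187, and the log2 change was 0.02 ± 0.19 (edgeR, adjusted p = 0.942). Its footprint counts were 12, 7 and 0 with vehicle and 54, 15 and 19 with AP20187. In CPM these were 6.54, 3.81 and 0 against 5.09, 4.62 and 5.06, and the zero in vehicle replicate 3 allows up to 0.749 CPM. The log2 change of 0.61 ± 1.08 carried little information (edgeR, adjusted p = 0.852), and without vehicle replicate 3 it was -0.08.

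Eif4a2 (chr16:23107444-23114136, forward strand), whose protein is closely related to eIF4A1, was at 1241, 1250 and 1535 CPM in vehicle RNA and at 1040, 863 and 1347 CPM with AP20187. Its footprints were at 774, 501 and 845 CPM against 608, 331 and 648 CPM. Both sets overlapped, with log2 changes of -0.31 ± 0.20 in RNA (edgeR, adjusted p = 0.277) and -0.43 ± 0.33 in footprints (edgeR, adjusted p = 0.576). The snoRNA genes within these genes, and Rfc4, which overlaps the span of Eif4a2 on the other strand, covered no exonic base of the transcript models used. The Eif4a2 model held 1227 bases, all coding. The rest of its 3197 bases of merged exons was not checked.

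The cofactor genes passed no test of change. Eif4b (chr15:102073773-102097173, forward strand) was at 582, 545 and 529 CPM in vehicle RNA and 518, 573 and 468 CPM with AP20187, and its footprints were at 192, 213 and 293 against 245, 244 and 331 CPM. Eif4h (chr5:134619721-134639490, reverse strand) was at 461, 436 and 459 against 455, 448 and 436 CPM in RNA, and its footprints were at 411, 372 and 379 against 429, 375 and 414 CPM. All 4 sets overlapped. The log2 changes in RNA were -0.09 ± 0.14 for Eif4b (edgeR, adjusted p = 0.662) and -0.02 ± 0.12 for Eif4h (edgeR, adjusted p = 0.924), and those in footprints were 0.22 ± 0.27 and 0.06 ± 0.23 (edgeR, adjusted p = 0.769 and 0.942).

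**Figure D2:**
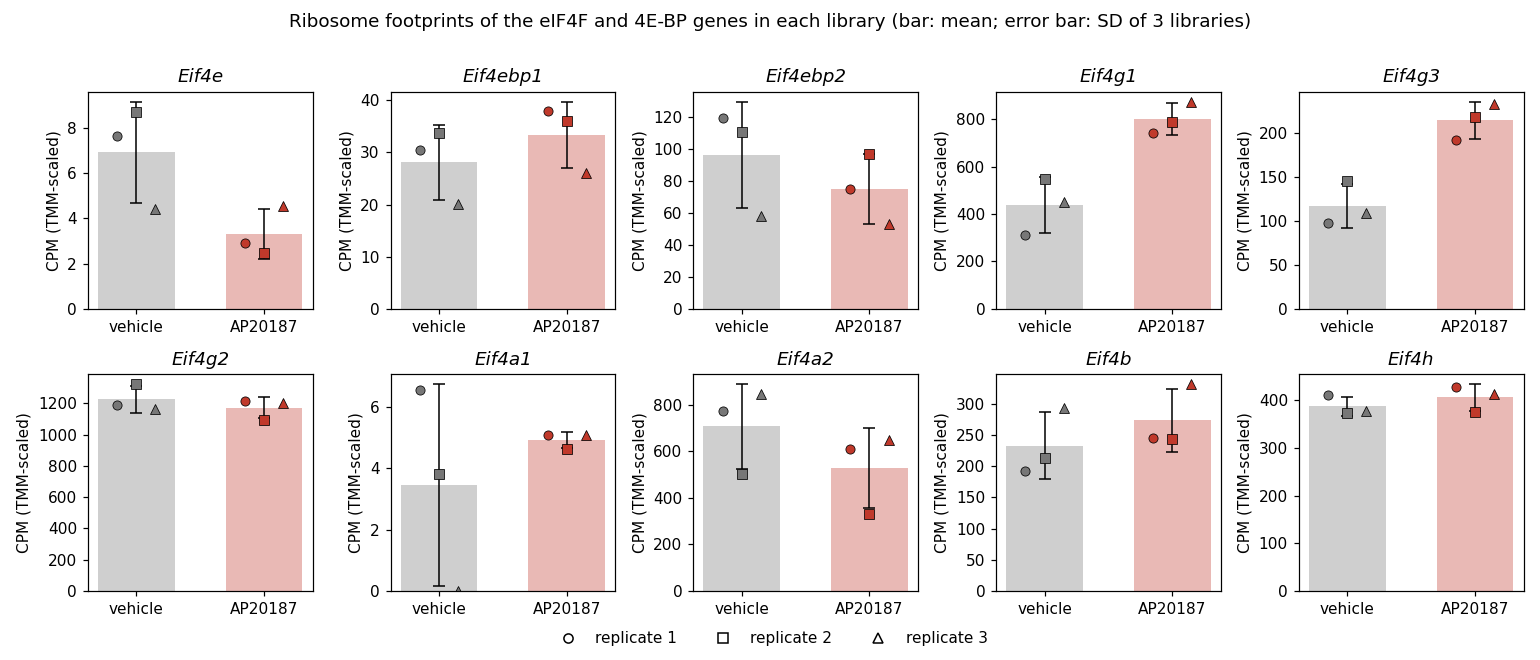
Ribosome footprints on each of the 10 genes in each library, in TMM-scaled CPM on a linear axis from 0, with the mean and SD of 3 libraries per group. Eif4g1 and Eif4g3 are higher in all AP20187 libraries, and the scales of Eif4e and Eif4a1 stay below 10 CPM.

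Counted together, 2 of the 10 genes rose in RNA and 0 fell (edgeR, adjusted p under 0.05), beside 12.4% of all genes tested that rose, 13.9% that fell and 26.2% in either direction. The same 2 genes were those whose RNA groups did not overlap, which held for 45% of all genes in either direction and, with AP20187 higher, for 21.9%. The median log2 change was 0.00 over the 10 genes and 0.01 over all genes, and the median size of the change regardless of sign was 0.09 against 0.34. In footprints 0 of 10 were called by edgeR, with 2 at an unadjusted p under 0.05. Both of these, Eif4g1 and Eif4g3, were called by edgeR with the replicate block and by DESeq2, and limma voom called 0. The share of all genes called by edgeR without the block was 2.54%, with 0.937% higher and 1.6% lower, and the block raised that number from 179 to 715 genes. Groups did not overlap for 2 of the 10, beside 23.3% of all genes and, with AP20187 higher, 11.8%. The median log2 change was 0.14 against 0.03.

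Markers of several cell types moved with AP20187, beside 12.4% of all genes tested that rose in RNA and 13.9% that fell. In RNA, 7 of 8 luminal epithelial markers in the table rose and 1 fell, with summed levels of 4138 to 5166 CPM in vehicle and 7098 to 9487 CPM in AP20187 libraries. Of 10 basal markers 1 rose and 5 fell, and the sums were 5349 to 6107 CPM and 2933 to 4535 CPM. Fibroblast markers fell in 6 of 7 cases, from sums of 3450 to 6005 CPM to sums of 1306 to 1790 CPM.
Endothelial markers fell in 4 of 4 cases, from sums of 531 to 717 CPM to 286 to 327 CPM. Adipocyte markers fell in 3 of 4, from 259 to 496 CPM to 47.0 to 101 CPM, and Schwann cell markers in 5 of 6, from 217 to 367 CPM to 68.7 to 138 CPM. Of the 3 macrophage and leukocyte markers 1 rose, and their median log2 change was -0.41. Their sums were 349 to 841 CPM with vehicle and 1104 to 1399 CPM with AP20187, without overlap. The higher sum therefore does not describe each of these markers. In footprints 0 luminal markers rose and 1 fell, with overlapping sums of 6453 to 8906 CPM with vehicle and 7842 to 11898 CPM with AP20187. Footprint falls numbered 4 for fibroblast, 2 for Schwann cell and 1 each for basal, endothelial and adipocyte markers, and 0 rose. Beside these, 0.937% of all genes rose in footprints and 1.6% fell. Footprint sums of fibroblast, endothelial, adipocyte and Schwann cell markers were lower without overlap. None of the markers in the table was at 0 in all libraries, and 7 of the 15 luminal markers, Cldn4, Elf5, Kit, Esr1, Foxa1, Ly6a and Prlr, were not among the table's genes. In such bulk samples fewer cells of a type and less RNA per cell cannot be told apart, and the part of these markers in the results for Eif4ebp1, Eif4g1 and Eif4g3 was not tested.

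**Figure D3:**
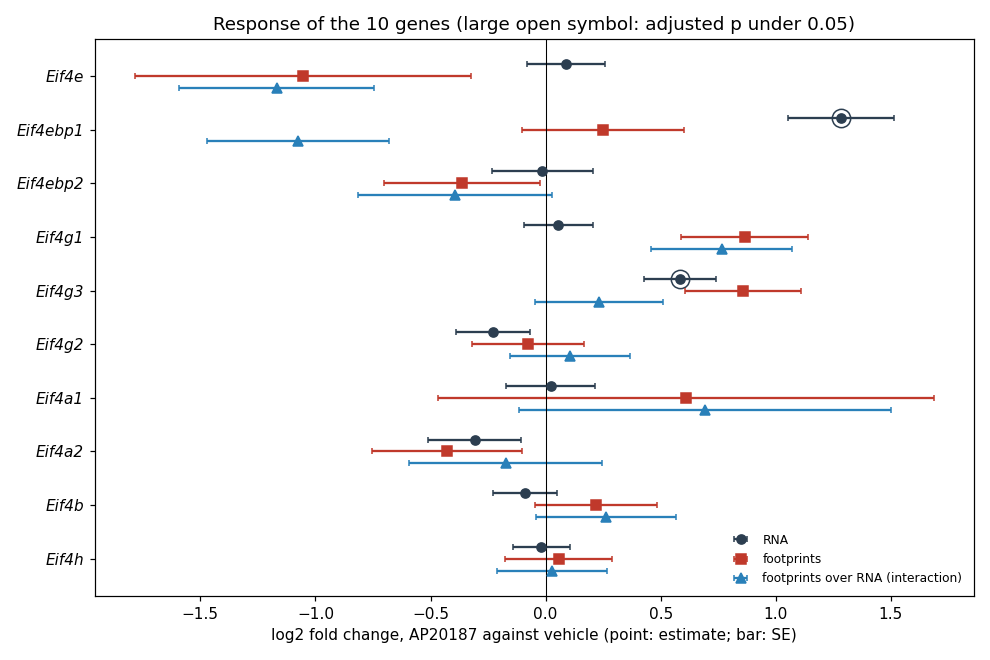
Log2 fold change of AP20187 against vehicle for the 10 genes in RNA, in footprints and in footprints over RNA, with bars of 1 SE. Eif4ebp1 at 1.28 and Eif4g3 at 0.58 in RNA are the changes past an adjusted p of 0.05.

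Footprints over RNA, a measure of translational efficiency, compare the ribosomes on a gene with its message. No change of this ratio with AP20187 was called, which does not show that the ratios were alike. edgeR called 0 of 10 members and 0% of all genes, DESeq2 called 0 of the 10, and limma voom called 0. By edgeR 3 members had an unadjusted p under 0.05. Eif4e was at -1.17 ± 0.42 on the log2 scale (edgeR, unadjusted p = 0.0157, adjusted p = 0.985). Eif4ebp1 was at -1.08 ± 0.40 (edgeR, unadjusted p = 0.0166, adjusted p = 0.988), and Eif4g1 at 0.77 ± 0.31 (edgeR, unadjusted p = 0.0260, adjusted p = 0.988). The median over the 10 genes was 0.07 and over all genes -0.08.

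For Eif4ebp1, footprints over RNA relative to the median gene of the same pair of libraries were 2.01, 1.52 and 1.68 with vehicle and 0.909, 0.852 and 0.685 with AP20187. The vehicle pairs were all higher. For Eif4g1 the values were 0.326, 0.642 and 0.468 against 0.693, 0.799 and 0.990, with all AP20187 pairs higher. The share of all genes whose values did not overlap was not computed. Separation of the groups, here and below, is therefore a description only. For Eif4g3, whose RNA and footprints were both higher with AP20187, the values overlapped, at 0.490, 0.792 and 0.597 against 0.627, 0.669 and 0.999. The pairs follow the replicate numbers. Deviations of same-numbered RNA and footprint libraries from their group means correlated at 0.0533, 0.0800 and 0.330 with vehicle. With AP20187 these values were 0.451, 0.523 and 0.369. Vehicle RNA replicate 2 with footprint replicate 1 gave 0.159, so the data did not bear out vehicle pairs 1 and 2.

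The other members overlapped or rested on few counts. Eif4ebp2 was at 2.06, 2.39 and 1.25 against 1.42, 1.52 and 1.48, and Eif4h at 1.02, 0.941 and 0.899 against 1.02, 0.909 and 1.04. Eif4g2 was at 0.475, 0.596 and 0.428 against 0.533, 0.533 and 0.563. Eif4a2 ranged from 0.417 to 0.711 and Eif4b from 0.376 to 0.779 over all 6 pairs.
Eif4e stood at 0.0564, 0.0605 and 0.0266 against 0.0179, 0.0194 and 0.0237. The groups did not overlap, but each value rests on the few counts given above. Eif4a1 was at most 0.00439 in any pair.

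**Figure D4:**
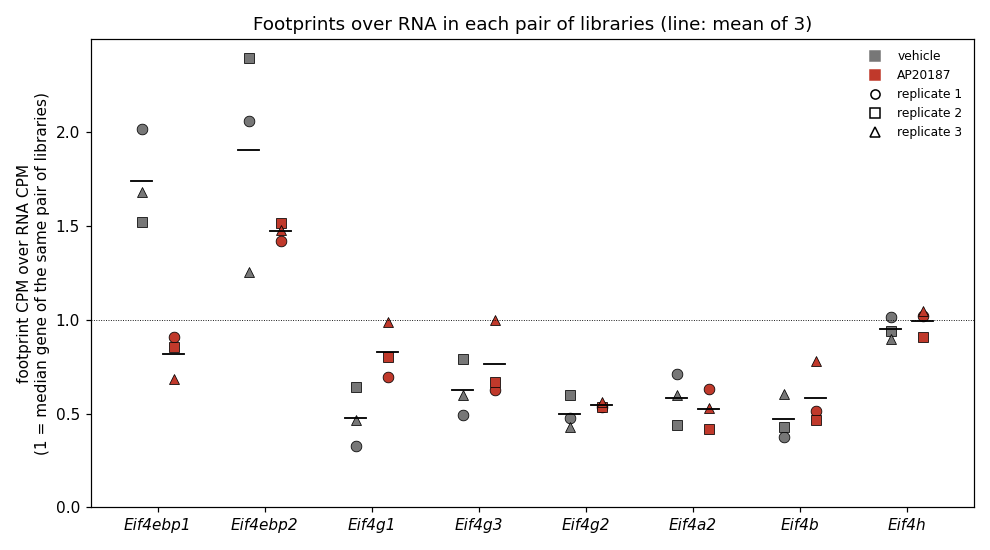
Footprint CPM over RNA CPM for 8 of the 10 genes (Eif4a1 and Eif4e not drawn) in each pair of libraries, where 1 is the median gene of the same pair and lines are means of 3. Eif4ebp1 lies above 1 in all vehicle pairs and below 1 in all AP20187 pairs.

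Within the vehicle group, 9 of the 10 genes differed from the table's reference in footprints over RNA (edgeR, adjusted p under 0.05), 2 higher and 7 lower, beside 50.9% of all genes in either direction, 26.7% higher and 24.2% lower. The repressors were the higher ones, with Eif4ebp1 at 0.76 ± 0.28 (adjusted p = 0.0377) and Eif4ebp2 at 0.92 ± 0.30 (adjusted p = 0.0197) on the log2 scale. Both calls were lost with limma voom (adjusted p = 0.175 and 0.0919), and that of Eif4ebp1 also with DESeq2 size factors in edgeR (adjusted p = 0.0515). Leaving out single libraries ended both calls as well, for Eif4ebp1 without 7 of the 12 taken singly (adjusted p up to 0.187) and for Eif4ebp2 without 4 of the 12 (adjusted p up to 0.122). The scaffolds were lower, with Eif4g1 at -1.08 ± 0.22, Eif4g2 at -1.02 ± 0.18 and Eif4g3 at -0.68 ± 0.20, as were Eif4b at -1.09 ± 0.22 and Eif4a2 at -0.77 ± 0.30. The call for Eif4a2 was lost without 5 of the 12 libraries taken singly, up to an adjusted p of 0.136, and with upper quartile scaling (edgeR, adjusted p = 0.0512). Eif4h, at -0.07 ± 0.17, was not called.

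With AP20187 5 members were lower and 0 higher, beside 20.5% and 19.4% of all genes and 39.9% in either direction: Eif4a1, Eif4e, Eif4a2, Eif4b and Eif4g2. The call for Eif4a2 was lost without RNA AP20187 replicate 3 (edgeR, adjusted p = 0.0952) or footprint AP20187 replicate 2 (edgeR, adjusted p = 0.0762). Eif4ebp1 was at -0.32 ± 0.27 there (adjusted p = 0.382) and Eif4g1 at -0.32 ± 0.22 (adjusted p = 0.261). These values come from the same 12 libraries as the test of the ratio's change, which called neither gene.

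Eif4a1 and Eif4e were far below the rest, at -9.15 ± 0.68 and -4.49 ± 0.31 with vehicle (edgeR, adjusted p = 3.52e-07 and 1.90e-07). Of 7315 genes ranked from the lowest ratio, Eif4a1 was number 38 and Eif4e number 125. The share of 28-base words found in another gene moved with the ratio over the whole table. Genes with 0% shared had a median log2 ratio of 0.17, and 19.3% of 4803 were called lower. Genes with more than 80% and up to 95% had a median of -1.71, with 60.1% of 143 called lower. Above 95% the median was -4.34, with 76.0% of 121 called lower.
How the footprint pipeline treated reads that fit several places is not given in the sources used here, and its part in the footprint values of Eif4a1 and Eif4e was not tested. Their footprint counts are printed as deposited and are not read as ribosome occupancy.

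**Figure D5:**
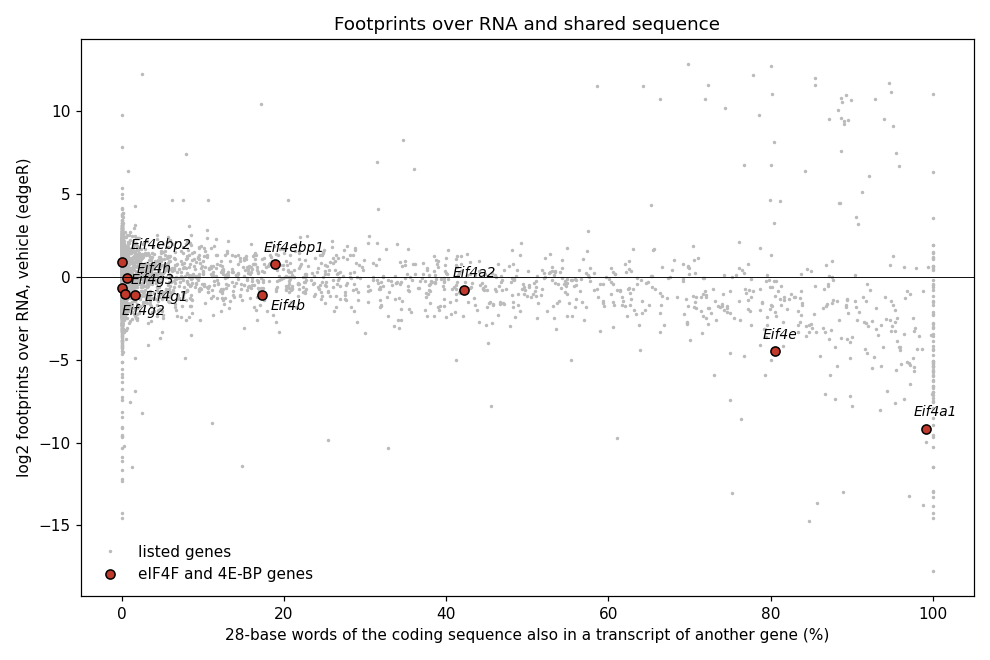
Log2 footprints over RNA with vehicle against the percentage of 28-base coding words shared with another gene, for the genes of the table in grey and the 10 members in red. Eif4e at 80.5% and Eif4a1 at 99.2% lie at -4.49 and -9.15, and the other 8 lie between -1.09 and 0.92.

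Ratios between members within a library do not depend on scaling. The RNA ratio of Eif4ebp1 to Eif4e, repressor to target, was 0.112, 0.154 and 0.0718 with vehicle and 0.256, 0.333 and 0.200 with AP20187. Each AP20187 library was higher, by 2.39-fold on average (exact 2-sided permutation test, p = 0.1, adjusted p = 0.167 over 10 ratios). With 3 against 3 libraries, 0.1 is the smallest p this test can give, so no ratio could pass 0.05.
The RNA ratio of Eif4ebp1 to Eif4ebp2 was 0.260, 0.478 and 0.257 against 0.787, 0.659 and 1.06, and in footprints it was 0.255, 0.304 and 0.345 against 0.504, 0.370 and 0.492. The log2 differences were 1.37 and 0.59, and neither pair of groups overlapped.
The RNA ratio of Eif4a1 to Eif4a2 was 1.37, 1.43 and 1.30 against 1.68, 1.77 and 1.70, a 1.26-fold difference without overlap. The RNA ratio of Eif4g1 to Eif4g3 was 4.80, 4.64 and 5.31 against 3.50, 3.03 and 3.79, lower in each AP20187 library. In footprints that scaffold ratio overlapped, with a log2 difference of 0.03 (exact permutation test, p = 0.9). The ratio of Eif4b to Eif4h overlapped in RNA and in footprints, with log2 differences of -0.07 and 0.17 (exact permutation test, p = 0.5 for each).

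Of 19 listed partners of eIF4E and eIF4F, 1 rose and 2 fell in RNA (edgeR), beside 12.4% and 13.9% of all genes, so the share called was below that of the table. The median log2 change was 0.07, against 0.01 over all genes. Cyfip2, a relative of the eIF4E-binding protein CYFIP1, fell by 2.13 ± 0.38 (adjusted p = 0.00940). The RNA helicase gene Ddx3x fell by 0.57 ± 0.17 (adjusted p = 0.0406), and Pabpc4, a poly(A)-binding protein, rose by 0.46 ± 0.12 (adjusted p = 0.0313). Paip2, an inhibitor of poly(A)-binding protein, was at -0.47 ± 0.17 (adjusted p = 0.0685). None of 18 tested in footprints was called by edgeR, with 1 at an unadjusted p under 0.05.

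In the mTORC1 and S6 kinase pathway, which acts on the 4E-BPs, 3 of 23 genes rose and 2 fell in RNA (edgeR), beside 26.2% of all genes in either direction, with a median of 0.04. This share was no larger than that of the table. Deptor, an mTOR-binding inhibitor, rose by 1.07 ± 0.19 (adjusted p = 0.00924), Rps6ka1, the kinase RSK1, by 0.98 ± 0.20 (adjusted p = 0.0132) and Rptor, the scaffold of mTORC1, by 0.68 ± 0.14 (adjusted p = 0.0136). Rragc, a Rag GTPase of amino acid sensing, fell by 0.69 ± 0.16 (adjusted p = 0.0185), and Tsc1, an upstream inhibitor named after its value was seen, fell by 0.52 ± 0.14 (adjusted p = 0.0314). Deptor was the 1 gene of 21 called in footprints, at 1.55 (edgeR, adjusted p = 0.0398), and that call was lost without any single footprint library, with adjusted p of 0.0696 to 0.128.

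Among 33 other initiation factor genes 4 rose and 0 fell in RNA (edgeR), beside 12.4% and 13.9% of all genes, with a median of 0.06. The share that rose was near that of the table. Eif2b4 and Eif2b3, subunits of the eIF2B exchange factor, rose by 1.22 ± 0.19 (adjusted p = 0.00704) and 0.77 ± 0.19 (adjusted p = 0.0222). Eif3g, an eIF3 subunit, rose by 0.46 ± 0.12 (adjusted p = 0.0283), and Eif2d by 0.47 ± 0.15 (adjusted p = 0.0468). In footprints 0 of 33 were called, with 3 at an unadjusted p under 0.05.
Without any single RNA library the calls of Cyfip2, Deptor and Eif2b4 held. Those of the other 9 named genes called in these lists were lost without at least 1 library, and vehicle replicate 3 cost most: without it 1 partner, 1 mTORC1 pathway gene and 1 initiation factor remained called. Without vehicle replicate 1 the counts were 1, 3 and 1, and without AP20187 replicate 1 they were 1, 2 and 1. Without vehicle replicate 2 there were 2 partners and 8 mTORC1 pathway genes, and without AP20187 replicate 2 there were 7 initiation factors. In translational efficiency none of the 3 lists had a called gene by edgeR.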

How the data were processed

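Counts per gene for 12 libraries were deposited by the authors as 1 table of 7318 genes, and no source used here says how those genes were selected. The genome build was mm10, and the tools were HTSeq, Bowtie2, STAR, cutadapt and bcl2fastq 1.8.3, per the submitters' processing notes, which state no role. Library sizes are the sums of this table.

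Counts were tested with edgeR 4.0.16 in R 4.3.3 (quasi-likelihood test, TMM, default filter on low counts, Benjamini-Hochberg over all genes tested, threshold 0.05). RNA and footprint libraries were fitted separately. Translational efficiency was the interaction of assay and treatment over all 12 libraries, and footprints over RNA within each group came from that model. Ratios of counts within a library, with 0.5 added to each, were compared by exact permutation. The alternatives were DESeq2 size factors, upper quartile scaling, DESeq2 1.42.0, limma voom (limma 3.58.1), no filter, a replicate block, and leaving out each library. Coding length in place of exon length was added after seeing the data. The procedure was tested on simulated data.

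Deviations of same-numbered footprint libraries from their group means correlated across genes (r = 0.154, 0.257 and 0.337), so the numbers were taken to pair them. Those of RNA libraries did not (0.197, -0.05 and -0.06). The footprint pairing was thus read from the same libraries that the block tested, and the labels used here do not state it. Calls made with the block are therefore no independent support.

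Members and lists were chosen with earlier results of these data known. Beside all members, up to 4 genes per list with the smallest p in RNA were named, and the 3 genes most like each member called in RNA. Gene models, coordinates and shared words came from GENCODE M21.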

Additional observations from a re-analysis of the deposited data

How the results depend on the processing

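Over 780 values of the 10 genes under other settings, 734 kept their direction and side of the threshold, 26 lost a call, 4 gained one and 16 changed sign. The count of members called in RNA was 1 to 2 without single libraries. The count in footprints was 2 with DESeq2, 2 with the replicate block and 0 to 0 without single libraries; the cause was not tested. The block changed no other call of a member: in RNA, where the numbers do not pair the libraries, it again called 2 members, with 1281 genes in all against 1919. Over all genes, footprint calls numbered 179, but 528 with DESeq2, 715 with the block and 0 to 186 without single libraries, where RNA calls numbered 538 to 2214. In the lists, RNA calls of other initiation factors were 4, but 7 with DESeq2 and 2 with the block, which also called 3 mTORC1 pathway genes in place of 5 and 2 ATF4 targets in place of 6.

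Sign changes were near 0 or rested on few counts. Upper quartile scaling gave 0.0036 for Eif4ebp2 RNA, and 0.034 with vehicle and 0.065 with AP20187 for Eif4h footprints over RNA; it moved the median of all genes by 0.10 in both of the latter. Without single libraries, RNA changes ranged from -0.20 to 0.19 for Eif4ebp2, -0.15 to 0.16 for Eif4a1, -0.024 to 0.0064 for Eif4h and -0.057 to 0.24 for Eif4e. Eif4a1 ranged from -0.079 to 1.63 in footprints and -0.094 to 1.83 in translational efficiency, Eif4a2 from -0.32 to 0.081 in translational efficiency, Eif4h from -0.096 to 0.023 in footprints over RNA with AP20187, and the footprint ratio of Eif4g1 to Eif4g3 from -0.077 to 0.12. Footprint values of Eif4e rest on 8 to 31 counts a library and those of Eif4a1 on 0 to 54.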

Other observations

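Transcripts often described as sensitive to eIF4E activity were tested as a list, chosen with earlier results of these data known. Of the 7 in the table, 3 rose in RNA and 0 fell (edgeR), beside 12.4% and 13.9% of all genes, although the list's median log2 change was -0.07, against 0.01 over all genes. Rrm2, a ribonucleotide reductase subunit, rose by 1.27 ± 0.31 (adjusted p = 0.0224), Bcl2l1, which encodes BCL-XL, by 0.75 ± 0.20 (adjusted p = 0.0285), and the growth factor gene Fgf2 by 1.10 ± 0.32 (adjusted p = 0.0384). Mcl1 was at -0.52 ± 0.17 (adjusted p = 0.0537). None remained called without vehicle replicate 1 or vehicle replicate 3, and 1 did without AP20187 replicate 1. In footprints 0 of 7 were called by edgeR, with 0 at an unadjusted p under 0.05. The list's median log2 change in footprints was -0.27, against 0.03 over all genes. In translational efficiency 0 of 7 were called by edgeR, and the median was -0.40 against -0.08.

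Of 22 listed targets of the transcription factor ATF4, to which Eif4ebp1 is also known to belong, 9 were in the table. Of these 9, 5 rose and 1 fell in RNA (edgeR), beside 12.4% and 13.9% of all genes, with a median of 0.43 against 0.01. The list was chosen with earlier results of these data known, so its share is a description only. A part of ATF4 in the rise of Eif4ebp1 was not tested. The amino acid transporter gene Slc7a5 rose by 1.62 ± 0.21 (adjusted p = 0.00590), Shmt2 of one-carbon metabolism by 0.90 ± 0.19 (adjusted p = 0.0152), the serine synthesis gene Phgdh by 1.08 ± 0.30 (adjusted p = 0.0333) and Cebpb by 0.43 ± 0.12 (adjusted p = 0.0393). Psat1 at 1.12 ± 0.35 (adjusted p = 0.0479) and Cebpg, which fell by 0.44 ± 0.14 (adjusted p = 0.0472), were named after their values were seen. The call of Slc7a5 held without any single RNA library. The count fell to 1 without vehicle replicate 1 or 3, 2 without AP20187 replicate 1, and 3 without AP20187 replicate 2 or 3. With the replicate block, 2 of the 9 were called. Slc7a5 was also called in footprints, at 1.29 (edgeR, adjusted p = 0.0290), but in 4 of the 6 fits without a single footprint library it was not, with adjusted p of up to 0.128.

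Over the 12 libraries, centred within assay, the genes most like Eif4ebp1 among 6846 were Lman1 (Pearson r = 0.970), Smyd5 (0.954) and Htatip2 (0.954). Those most like Eif4g3 were Myo10 (0.981), Ddx56 (0.969) and Akt1 (0.963). These are descriptions over libraries that share treatment and depth.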
